A study of Mus musculus with 8 samples.

Results

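The core autophagosome machinery was described here as 37 genes, chosen by symbol from the known steps of autophagosome formation: the ULK kinase complex (5 genes), the class III PI3-kinase complex and its regulators (7), lipid transfer and phagophore growth (9), the conjugation of LC3-like proteins (13) and fusion with the lysosome (3). All 37 were present among the 19909 genes measured, and all 37 had an adjusted p-value in each comparison. The values are bulk RNA sequencing of haematopoietic stem cells (HSCs) purified from mouse bone marrow, isolated at steady state. Every mouse was homozygous for a GFP-LC3 reporter (genotype Gfplc3/Gfplc3), in which the fluorescent protein is joined to the autophagosome protein LC3. The sources used here do not name the promoter of the reporter. The young group was 2 libraries of unfractionated HSCs, from 2 mice aged 8 to 12 weeks. The old groups came from 3 mice aged over 24 months, whose HSCs were sorted on GFP. AThi (GFPlo, autophagy-high) is the 33% of cells with the lowest GFP signal, and ATlo (GFPhi, autophagy-low) is the 33% with the highest, each with 3 libraries. The old cells were gated and the young cells were not, so in the comparisons with young an effect of age cannot be told apart from one of the gate.

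Autophagy encloses cytoplasm in a double membrane and delivers it to the lysosome. The ULK kinase complex starts the process under the control of nutrient kinases, and the PI3-kinase complex then marks the membrane with a phosphoinositide. Lipid carriers enlarge the membrane, a ubiquitin-like conjugation system attaches LC3 and GABARAP proteins to it, and SNARE proteins and tethers join it to the lysosome. In HSCs, autophagy is known for clearing mitochondria and for keeping the cells quiescent, and loss of conjugation genes such as Atg7 or Atg5 impairs these cells. The GFP gate reads the turnover of the reporter protein, whereas the values below are mRNA levels.

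Depth was 33960216 to 61341946 reads per library, and the ATlo libraries were the deepest. Mitochondrial and cytosolic ribosomal RNA genes took 27.1% to 36.1% of the reads of a library. These reads are part of the library size used below for levels per length. All 8 marker genes listed for HSCs were measured. Of these, 3 were higher in AThi than in ATlo by the test used throughout, and the summed level of the 8 was 111218 to 137492 normalized counts in AThi and 81903 to 104924 in ATlo. The 7 cell cycle genes listed were all lower in AThi, with a summed level of 35629 to 43596 against 93712 to 103916 in ATlo and 55010 to 68707 in young. The 3 libraries whose column names end in 12 stood apart. Their 4 measured B cell genes summed to 10753 in young D12, 23853 in AThi O12 and 10098 in ATlo O12, against 636 to 989 in the other 5 libraries, mostly from Ighm. Of the 6 erythroid genes, the sum was 278 to 1894 in AThi, 783 to 3763 in ATlo and 1596 to 4879 in young, and the highest library of each group was again the one tagged 12. The 5 megakaryocyte genes summed to 8766 to 10184 in AThi, 8668 to 12769 in ATlo and 3143 to 3431 in young, the 5 granulocyte genes to 5400 to 6647, 4038 to 6475 and 2653 to 2742, and the 4 monocyte genes to 8642 to 11014, 9281 to 9478 and 10131 to 10522. Lyz2 made up most of the monocyte sum. Ly6c2 was at 59.1, 144 and 142 in young D12, AThi O12 and ATlo O12, against 2.08 to 12.1 in the other libraries. Csf1r was at 253, 422 and 213 there, the highest of each group, while Cd68 was highest in O10 within AThi (603). The 3 T and NK genes summed to 1826 to 3170 in AThi, 1287 to 1464 in ATlo and 823 to 902 in young. Of these, Klrb1c was higher in AThi than in ATlo (1.33, adjusted p = 5.7e-05), and Nkg7 was at -0.54 (adjusted p = 0.29), in the authors' deposited table. The part of cell cycle state, other cell types and depth in the results below was not tested, except that each call is also given without the libraries tagged 12. In bulk RNA, fewer cells of a type and less RNA per cell cannot be told apart.

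In reads per kilobase of merged exons, scaled to library size (RPKM), the median of the 37 genes was 4.06, against 2.74 over the 19585 genes with a known length. Merged exons join those of every annotated transcript of a gene, so their length can exceed that of the mRNA. The order of genes on this scale depends on that length. On this scale Vmp1, an endoplasmic reticulum protein that moves lipids between membrane leaflets, stood highest at 17.9 as the mean of the 3 groups, with a range over libraries of 12.1 to 22.7. Rb1cc1, the FIP200 scaffold of the ULK complex, followed at 13.0 (9.55 to 15.6), and the kinase gene Ulk2 at 12.2 (9.54 to 16.3). The ranges of these 3 genes overlapped, so their order was not set apart from the spread between libraries. The lipid kinase gene Pik3c3 was at 10.2 and Atg3, the enzyme that transfers LC3 to lipid, at 9.81. At the low end were Atg16l1 at 1.15 (0.675 to 1.91), Tecpr1 at 1.29 (0.618 to 2.79), Atg4d at 1.30 (1.01 to 1.62), Zfyve1 (0.642 to 3.27 over libraries) and Atg16l2 at 1.54 (0.858 to 2.45), all with overlapping ranges. The merged exons of these genes ran from 7264 bases in Atg4d to 12772 in Tecpr1, and the part of that length in their rank was not tested. Trp53inp2 was lowest at 0.392, with a lowest library of 0.147, and had as few as 34 reads in a library, so its values carry the most counting error of the list. Within the ATG4 proteases, which trim LC3 before conjugation, Atg4c was highest per length at 6.20 (4.26 to 7.15) and did not overlap Atg4b at 2.04 (1.58 to 2.89) or Atg4d. The range of Atg4c did overlap that of Atg4a, at 2.87 (2.08 to 4.29). The merged exons were 3351 bases for Atg4c, against 8278 for Atg4b and 7264 for Atg4d. In mean normalized counts over all libraries Atg4c (953) and Atg4b (804) stood closer, and Atg4d was at 440.

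**Figure D1:**
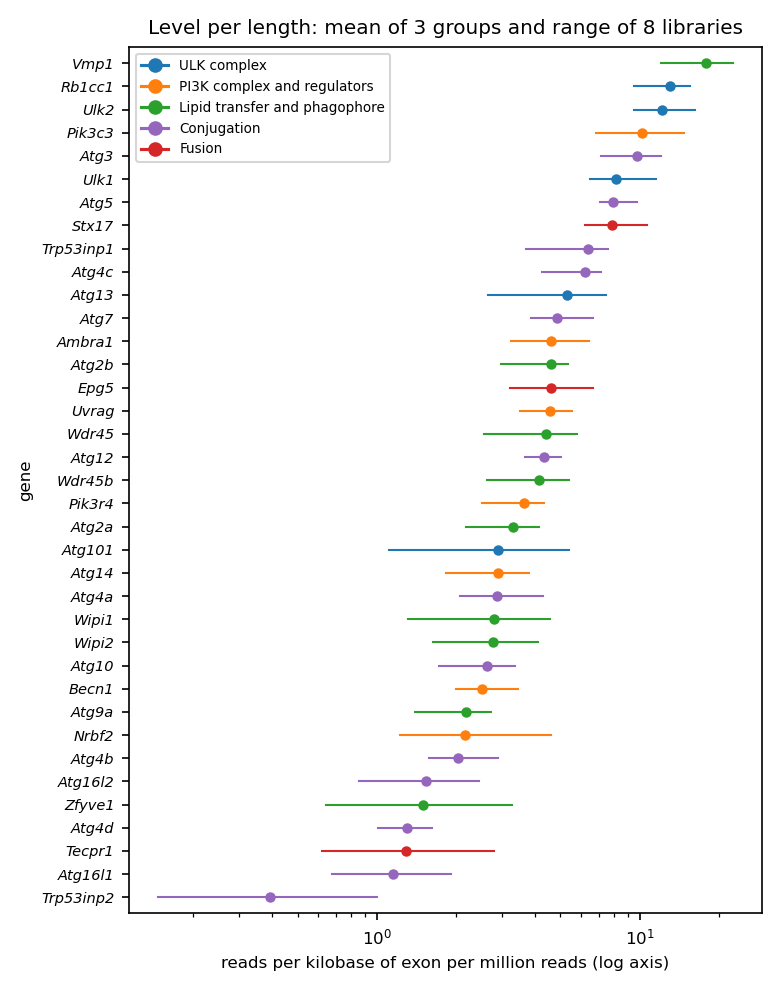
Level per length of the 37 machinery genes, in reads per kilobase of the merged exons of all annotated transcripts, scaled to library size (RPKM), on a log axis. Points are the mean of the young, AThi and ATlo means, lines span the lowest and highest of 8 libraries, and colours mark the step; Vmp1 (17.9), Rb1cc1 (13.0) and Ulk2 (12.2) lead and Trp53inp2 (0.392) is lowest.

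Promoter sequences are shown because TFEB, MITF and FoxO factors are known regulators of autophagy genes. RefSeq starts on GRCm38.p6 were matched for 29 of the 37 genes in windows of 250 bases before to 50 after the start; Rb1cc1, Becn1, Pik3c3, Wdr45b, Atg12, Atg16l1, Epg5 and Trp53inp1 were not matched. CACGTG, the core of the element bound by TFEB and MITF (its own reverse complement, so both strands are covered), was in a window of 5 of the 29 genes, 17.2%, against 11.4% of the 11432 genes of the count tables with a window and 7.15% of all 32851 windows. The CLEAR palindrome, which extends that core on both sides, was in 0 of 29 (0.744% of genes and 0.326% of windows), and the forkhead core GTAAACA, on either strand, also in 0 of 29 (3.20% of genes and 3.65% of windows). Of the called genes given below, Rb1cc1 and Trp53inp1 had no window and were not searched. The 5 genes with the core were Atg14, Atg3, Atg5, Atg7 and Nrbf2, none of which was among the called genes. Their sites are printed 5′ to 3′ on the strand of the gene, 26 bases each with the core in capitals and the GRCm38.p6 position, to show how the flanks differ, and Atg3 has 2 sites. The 29 genes had 34 windows, so a site may belong to 1 of several starts. The sites of Atg7 and Atg14 lie inside the annotated genes (chromosome 6, 114643097 to 114860614, and chromosome 14, 47540893 to 47570649). These 2 are at internal starts and not at the annotated 5′ end.
Atg14 (chr14:47568420-47568445, minus strand): aacaaaatccCACGTGactggccctg
Atg3 (chr16:45158725-45158750, plus strand): ctccttttgtCACGTGtcctgggaga
Atg3 (chr16:45158748-45158773, plus strand): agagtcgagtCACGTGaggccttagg
Atg5 (chr10:44268315-44268340, plus strand): gagcgcttgcCACGTGgtcttggtga
Atg7 (chr6:114670954-114670979, plus strand): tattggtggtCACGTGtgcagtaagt
Nrbf2 (chr10:67285474-67285499, minus strand): cccggctcatCACGTGacagccgccg

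The 250 bases upstream of the start are printed for Atg16l2 and Tecpr1, the genes called between the fractions for which a window was matched, from RefSeq on GRCm38.p6. Neither holds CACGTG or GTAAACA. Capitals mark TGACGTCA, the full cyclic AMP response element (its own reverse complement, overlapping none of the other motifs), which was searched after the sequences had been seen. It begins 18 bases before the start of Atg16l2, and was in 3 of the 29 genes (Atg16l2, Atg5 and Trp53inp2), 10.3%, against 3.34% of genes and 1.79% of windows. Its presence is a description of the letters and not evidence of a bound site.
Atg16l2 (chr7:101302089-101302338, minus strand): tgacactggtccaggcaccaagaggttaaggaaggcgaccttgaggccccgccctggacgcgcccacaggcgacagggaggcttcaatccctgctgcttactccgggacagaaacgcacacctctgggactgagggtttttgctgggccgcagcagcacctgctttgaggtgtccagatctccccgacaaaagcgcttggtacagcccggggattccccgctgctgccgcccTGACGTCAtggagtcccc
Tecpr1 (chr5:144223616-144223865, minus strand): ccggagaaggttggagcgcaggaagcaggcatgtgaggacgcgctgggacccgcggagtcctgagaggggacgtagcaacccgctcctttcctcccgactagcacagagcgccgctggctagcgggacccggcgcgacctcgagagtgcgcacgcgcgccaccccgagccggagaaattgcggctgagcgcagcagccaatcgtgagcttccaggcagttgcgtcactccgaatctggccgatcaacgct

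Between the old fractions, the 33% of cells with the lowest and the highest GFP signal, 4 of the 37 genes were higher in AThi and 0 were lower. These were Rb1cc1, Atg16l2, Trp53inp1 and Tecpr1, from the ULK, conjugation and fusion steps. The 4 calls are 10.8% of the list, against 7.90% of all 17908 genes tested that were called in either direction, 3.47% higher and 4.43% lower. Among genes whose mean level lay in the range of the 37, 9.09% were called. The median log2 fold change of the 37 genes was 0.22 in the authors' deposited table, against 0.02 for all genes tested, and 27 of the 37 values were positive, against 52.1% of all genes. The test is the authors' DESeq2 Wald test, with a gene called at a Benjamini-Hochberg adjusted p below 0.05. By edgeR's quasi-likelihood test on the same reads 0 of the 37 were called (smallest adjusted p = 0.098, 6 with an unadjusted p below 0.05), where 1.41% of all genes were. In counts simulated with the spread that DESeq2 had fitted, and without pairs, DESeq2 made more false calls than its threshold allows. There edgeR did not, but it recovered fewer true changes. The real libraries may differ from that setting, so it does not decide which of the calls here are false. Of the 33 genes not called, 26 had a 95% interval of the log2 fold change that lay inside ±1, as had 8515 of the 16494 genes not called among all tested. Such an interval can still hold a change of the size called for Rb1cc1 (0.36), Trp53inp1 (0.61) or Atg16l2 (0.83).

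Against young, 5 genes were called in 1 of the fractions, and each had the same sign in the other. In AThi, 1 of 37 genes was higher than in young, Vmp1, and 0 were lower. That is 2.70% of the list, against 5.04% of all genes called in either direction (3.13% higher, 1.91% lower) and 6.09% of genes in the same range of levels. In ATlo, 0 were higher and 4 were lower, Rb1cc1, Atg16l2, Zfyve1 and Trp53inp1, which is 10.8% against 4.34% of all genes in either direction (2.37% higher, 1.98% lower) and 4.90% of genes in the same range of levels. The medians of the 37 log2 fold changes were 0.07 for AThi and -0.15 for ATlo against young in the authors' deposited table, with 0.00 and 0.01 over all genes. By edgeR 0 of 37 were called in either comparison (3 and 6 with an unadjusted p below 0.05, smallest adjusted p = 0.16 and 0.073), where 1.21% and 0.653% of all genes were. All 3 comparisons come from a single fit and share libraries in pairs, so Rb1cc1, Atg16l2 and Trp53inp1, higher in AThi than in ATlo and lower in ATlo than in young, rest on the same 3 ATlo libraries in both.

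Without regard to the test, the values of the groups did not overlap for some genes. AThi lay above young in 4 of 37 genes (10.8%, against 13.7% of all genes with a p-value) and below in 2 (5.41%, against 14.1%). ATlo lay above young in 1 gene, Atg7 (2.70%, against 15.8%), and below in 7 (18.9%, against 15.1%), of which 3 were in the ULK complex.

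**Figure D2:**
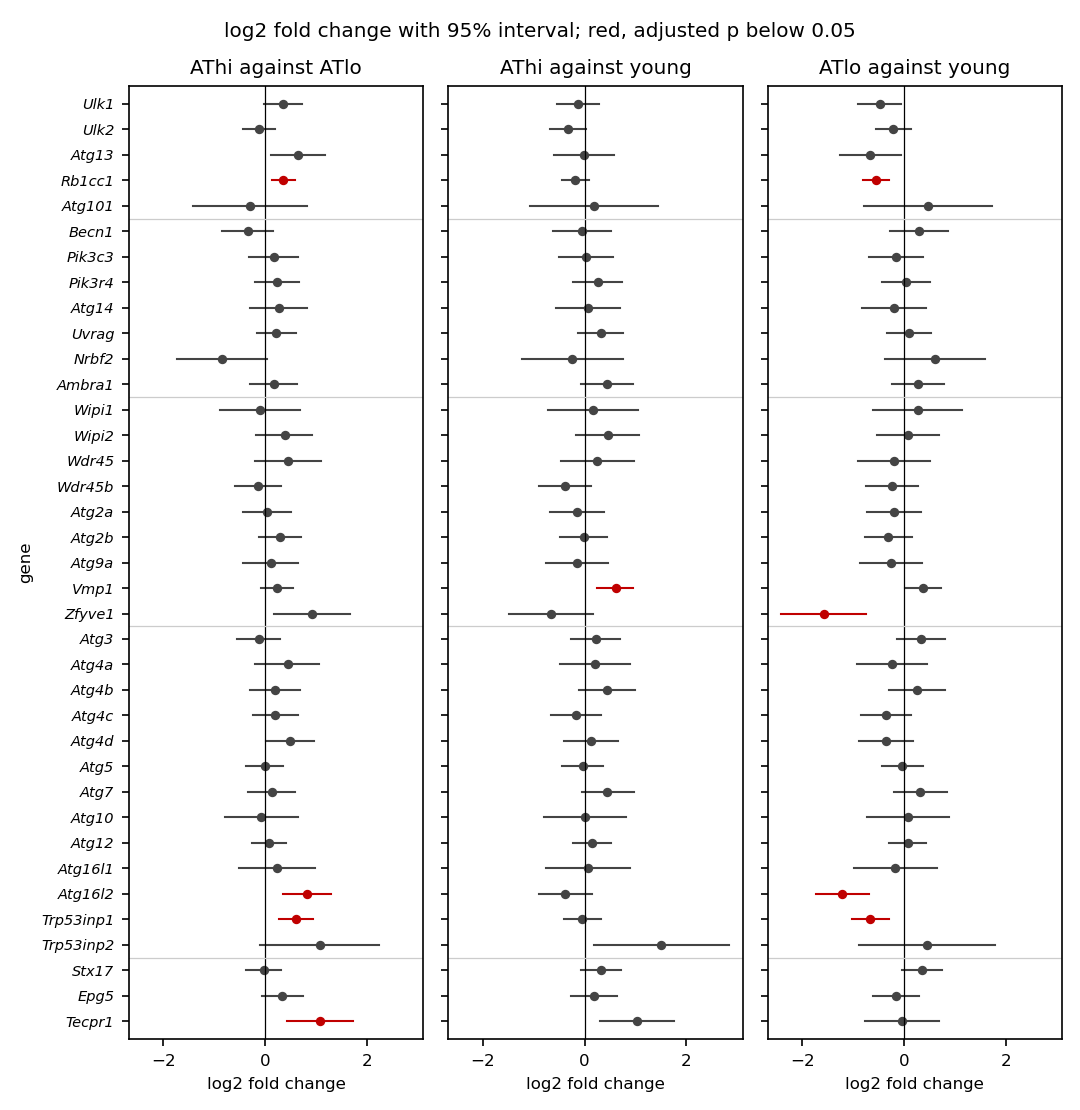
log2 fold change of each machinery gene with its 95% interval in the 3 comparisons, ordered by step (ULK, PI3-kinase, lipid transfer, conjugation, fusion, separated by grey lines). Red marks an adjusted p below 0.05: 4 genes to the right in AThi against ATlo, 1 to the right in AThi against young and 4 to the left in ATlo against young.

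In the ULK complex, Rb1cc1 (chromosome 1, 6206197 to 6276648, GRCm38) was the most abundant member and the one called. Its normalized counts stood at 10820 and 9952 in young (D11 and D12), at 9781, 8535 and 9184 in AThi (O10, O11 and O12) and at 7906, 6772 and 6690 in ATlo. The 3 groups did not overlap: young was highest, AThi in between and ATlo lowest. Means were 10386 ± 614 (SD, n = 2), 9167 ± 623 and 7123 ± 679 (SD, n = 3 each). In the authors' deposited table Rb1cc1 rose 1.29-fold in AThi over ATlo (log2 fold change 0.36, SE 0.12, adjusted p = 0.030) and fell by 0.54 on the log2 scale in ATlo against young (adjusted p = 0.0021, SE 0.13). AThi against young was -0.18 (adjusted p = 0.64, SE 0.13) in the authors' deposited table. In refits with DESeq2 the call between the fractions ended without young D11, AThi O10, AThi O12, ATlo O11 or ATlo O12 (adjusted p = 0.051, 0.17, 0.083, 0.18 and 0.16), and that against young ended without D11 (adjusted p = 0.18). Without the 3 libraries tagged 12 the log2 fold changes were 0.32 and -0.55 (DESeq2 adjusted p = 0.36 and 0.13).

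The other ULK genes were not called in the deposited fit; Ulk1 was called lower in ATlo than in young when only those groups were fitted and when AThi O11 was left out. Ulk1, a kinase of the complex, was at 2804 and 2773 normalized counts in young, at 2275, 3314 and 2032 in AThi and at 2015, 1976 and 2000 in ATlo. Both young values and all 3 AThi values lay above the ATlo values, although AThi O12 exceeded them by little. Its log2 fold change between the fractions was 0.35 (adjusted p = 0.30, SE 0.19) in the authors' deposited table. Atg13, the adaptor that joins the kinase to the scaffold, was at 1382 and 1090 in young, at 1619, 1045 and 1004 in AThi and at 944, 857 and 554 in ATlo, again without overlap between the fractions. Its value was 0.64 (adjusted p = 0.14, SE 0.27) in the authors' deposited table, and it was called in a fit of the 6 old libraries with the pair as a block (DESeq2 adjusted p = 0.041, edgeR adjusted p = 0.18). With the tag number as a block over all 8 libraries, which joins young and old libraries of different mice, its value in ATlo against young was -0.86 (DESeq2 adjusted p = 0.010, edgeR adjusted p = 0.14). Ulk2 went the other way between the fractions, at 2834, 3123 and 3170 in AThi and 3243, 3320 and 3368 in ATlo, a log2 fold change of -0.12 (adjusted p = 0.77, SE 0.16) in the authors' deposited table. Atg101, the partner of ATG13, ranged from 80.1 to 372 normalized counts over the 6 old libraries, with an interval of -1.42 to 0.82 that leaves its direction unset.

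The PI3-kinase step held no called gene in any comparison. For all 7 members the unadjusted p was above 0.05 in all 3 comparisons, and edgeR called 0 of 7. Pik3c3, the catalytic subunit VPS34, was the most abundant. It was at 1996 and 2370 normalized counts in young, at 1514, 1965 and 3150 in AThi and at 1895, 2032 and 1983 in ATlo. The AThi values spread on both sides of the 2 other groups, with O12 highest. The value of largest size in the step was that of Nrbf2, a subunit that activates the complex with ATG14, at -0.84 between the fractions (adjusted p = 0.29, SE 0.45) in the authors' deposited table. Nrbf2 was at 123, 154 and 144 in AThi and 172, 371 and 214 in ATlo, which did not overlap, and at 225 and 107 in young. Becn1, the scaffold Beclin 1, had a log2 fold change of -0.34 (adjusted p = 0.51, SE 0.26) in the authors' deposited table, and Atg14, the subunit that directs the complex to autophagosomes, 0.27 (adjusted p = 0.70, SE 0.29). Exons of Becn1 share 3104 bases, 43.9% of its exonic length, with Cntd1 on the opposite strand; no source used here states the strand setting of the counting, so reads of the 2 genes may not be told apart. The regulatory kinase Pik3r4, Uvrag and Ambra1 had values from 0.17 to 0.23 between the fractions in the authors' deposited table. The intervals of 6 of the 7 members lay inside ±1.

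In the step of lipid transfer and phagophore growth, Vmp1 was the most abundant and was higher in AThi than in young. Vmp1 (chromosome 11, 86583865 to 86683836) was at 2213 and 2851 normalized counts in young, at 3735, 3904 and 3921 in AThi and at 3782, 3271 and 2774 in ATlo. All AThi values lay above both young values, while ATlo O12 fell between the young values. It rose by 0.61 on the log2 scale in AThi against young in the authors' deposited table (adjusted p = 0.020, SE 0.18), and was at 0.37 in ATlo against young (adjusted p = 0.29, SE 0.18). The difference between those 2 values is the comparison of the fractions, 0.23 (adjusted p = 0.46, SE 0.16) in the authors' deposited table, so a difference between AThi and ATlo was not shown. The call ended without young D11, AThi O10, AThi O11 or AThi O12 (DESeq2 adjusted p = 0.37, 0.056, 0.082 and 0.062) and held without the libraries tagged 12 (log2 fold change 0.79, DESeq2 adjusted p = 0.026). The exons of Vmp1 contain the 92-base hairpin of Mir21a, whose reads cannot be told from its own.

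Zfyve1 encodes DFCP1, a protein that binds the phosphoinositide at the membrane where phagophores form (chromosome 12, 83546558 to 83597222). It was at 520 and 1267 normalized counts in young, at 454, 482 and 765 in AThi and at 243, 245 and 409 in ATlo. Each ATlo value lay below every value of the other groups, and the young values stood far apart. Zfyve1 fell by 1.58 on the log2 scale in ATlo against young in the authors' deposited table (adjusted p = 0.0089, SE 0.42). Without young D12 that value was -0.80 (DESeq2 adjusted p = 0.56), and without ATlo O10 or ATlo O11 it was -1.45 in both (DESeq2 adjusted p = 0.050 and 0.059), so the call ended each time. Without the 3 libraries tagged 12 it was -1.09 (DESeq2 adjusted p = 0.37). Between the fractions the log2 fold change was 0.92 (adjusted p = 0.12, SE 0.38) in the authors' deposited table. It was called higher in AThi with the pair as a block (DESeq2 adjusted p = 0.026, edgeR adjusted p = 0.12). The remaining 7 genes of the step were not called in any comparison. The next 2 values by size were those of Wdr45 and Wipi2, which bind the same phosphoinositide, at 0.45 (adjusted p = 0.49, SE 0.33) and 0.38 (adjusted p = 0.50, SE 0.28) between the fractions in the authors' deposited table. Wdr45b and Wipi1 had -0.15 and -0.10, and the lipid carriers Atg2a and Atg2b 0.04 and 0.29 in the authors' deposited table. Atg9a, the scramblase of the seed vesicles, had 0.11 in the authors' deposited table. Wdr45 shares 818 exonic bases with the overlapping gene Gm45208 and Atg9a 1832 with Gm29253, both on the same strand, so their counts depend on how shared reads were assigned.

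Of the 13 conjugation genes, Atg16l2 and Trp53inp1 were higher in AThi than in ATlo and lower in ATlo than in young. Atg16l2, a paralog of the scaffold that places the conjugation enzymes on the membrane, lies on chromosome 7 (101263034 to 101302251); its upstream sequence is printed above. It was at 983 and 682 normalized counts in young, at 656, 588 and 678 in AThi and at 356, 314 and 412 in ATlo. The 3 groups did not overlap, with young highest and ATlo lowest. It rose 1.78-fold in AThi over ATlo in the authors' deposited table (log2 fold change 0.83, SE 0.24, adjusted p = 0.010) and fell by 1.21 on the log2 scale in ATlo against young (adjusted p = 4.0e-04, SE 0.26). AThi against young was -0.38 (adjusted p = 0.61, SE 0.26) in the authors' deposited table. Between the fractions the call ended without AThi O10, AThi O12, ATlo O10 or ATlo O11 (DESeq2 adjusted p = 0.064, 0.065, 0.052 and 0.088) while the log2 fold change stayed between 0.74 and 0.82; against young it ended without D11 (-0.91, DESeq2 adjusted p = 0.17). Without the 3 libraries tagged 12 the values were 0.89 and -1.55 (DESeq2 adjusted p = 0.15 and 0.020).

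Trp53inp1 is a target of p53 whose protein binds LC3 and GABARAP (chromosome 4, 11156431 to 11174379). It had the most normalized counts of the step but stood behind Atg3 and Atg5 per length, and was at 2219 and 2206 normalized counts in young, at 2311, 2181 and 1935 in AThi and at 1575, 1481 and 1142 in ATlo. Young and AThi overlapped, and ATlo lay below both. Means were 2212 ± 9.15 (SD, n = 2), 2143 ± 191 and 1399 ± 228 (SD, n = 3 each). Trp53inp1 rose 1.53-fold in AThi over ATlo in the authors' deposited table (log2 fold change 0.61, SE 0.17, adjusted p = 0.0066) and fell by 0.66 on the log2 scale in ATlo against young (adjusted p = 0.016, SE 0.19). Between the fractions the call ended without AThi O10 or ATlo O12 (DESeq2 adjusted p = 0.065 and 0.052), and against young it ended without D11, D12 or ATlo O12 (DESeq2 adjusted p = 0.23, 0.17 and 0.068). Without both old libraries tagged O12 it was called between the fractions (0.56, DESeq2 adjusted p = 0.030), and without all 3 libraries tagged 12 it was called in neither comparison (0.56 and -0.53, DESeq2 adjusted p = 0.14 and 0.44). Its paralog Trp53inp2 had a log2 fold change of 1.07 (adjusted p = 0.32, SE 0.60) between the fractions in the authors' deposited table. Trp53inp2 was at 74.8 and 35.9 in young, at 70.3, 150 and 253 in AThi and at 55.0, 84.2 and 87.1 in ATlo, with AThi O12 far above the rest.

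The enzymes of the conjugation cascade were not called in any comparison. Atg7, the activating enzyme, had a log2 fold change between the fractions of 0.13 (SE 0.24) in the authors' deposited table. For Atg3 the value was -0.12 (SE 0.22) and for Atg10, the enzyme that joins ATG12 to ATG5, it was -0.08 (SE 0.37) in the authors' deposited table. Atg5 was at 939 and 823 normalized counts in young, at 824, 893 and 861 in AThi and at 757, 993 and 833 in ATlo, with an interval of -0.37 to 0.36 between the fractions. The ubiquitin-like Atg12 had 0.08 (SE 0.17) and the scaffold Atg16l1 0.23 (SE 0.38) in the authors' deposited table. Among the ATG4 proteases, Atg4d was at 584, 476 and 454 in AThi and 363, 318 and 405 in ATlo, without overlap, and had 0.48 (adjusted p = 0.25, SE 0.24) in the authors' deposited table. Kri1, on the opposite strand, covers 19.3% of the exonic length of Atg4d. Atg4a, Atg4b and Atg4c had 0.44, 0.19 and 0.20 in the authors' deposited table, with adjusted p from 0.49 to 0.77.

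Tecpr1, which binds the ATG5 and ATG12 conjugate at the lysosome, was the called gene of the fusion step (chromosome 5, 144194442 to 144223615). It was at 505 and 649 normalized counts in young, at 1035, 793 and 1709 in AThi and at 664, 643 and 376 in ATlo. All AThi values lay above all others, and O12 held both the highest AThi and the lowest ATlo value. Means were 577 ± 102 (SD, n = 2), 1179 ± 475 and 561 ± 160 (SD, n = 3 each). Tecpr1 rose 2.10-fold in AThi over ATlo in the authors' deposited table (log2 fold change 1.07, SE 0.33, adjusted p = 0.020), and was at 1.03 against young (adjusted p = 0.082, SE 0.37). The value between the fractions was 0.70 without AThi O12 and 0.85 without ATlo O12 (DESeq2 adjusted p = 0.19 and 0.12), and 0.49 without both (DESeq2 adjusted p = 0.46). Without all 3 libraries tagged 12 it was 0.48 (DESeq2 adjusted p = 0.57). The pair O12 also held the most B cell transcripts of the old libraries, and their part in this value was not tested. Stx17, the SNARE of the finished autophagosome, was the most abundant of the step at 1997 and 1704 in young, at 2532, 2071 and 2322 in AThi and at 1913, 2742 and 2411 in ATlo. The fractions overlapped, with a log2 fold change of -0.03 (adjusted p = 0.96, SE 0.18) in the authors' deposited table. Epg5, a tether between the 2 membranes, had 0.34 (adjusted p = 0.37, SE 0.21) in the authors' deposited table.

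**Figure D3:**
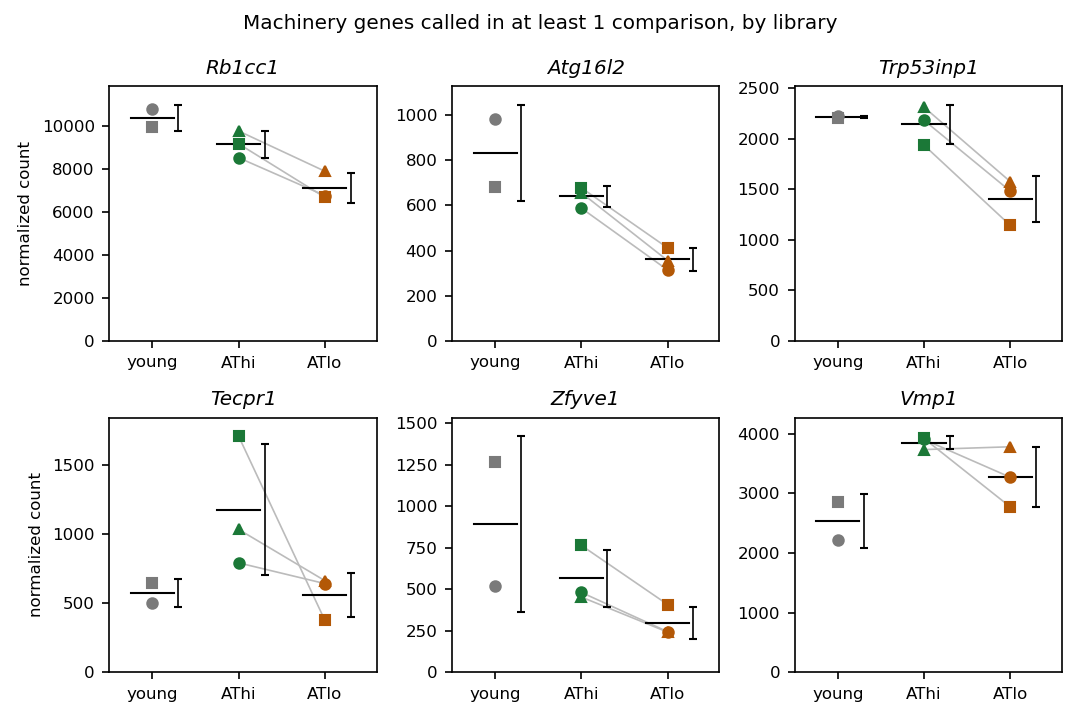
Normalized counts of the 6 machinery genes called in at least 1 comparison. Points are libraries (circle, tag 11; square, tag 12; triangle, tag 10), black lines group means, bars 1 SD, and grey lines join AThi and ATlo libraries with the same tag; ATlo lies lowest for Rb1cc1, Atg16l2, Trp53inp1 and Zfyve1, and AThi O12 stands out for Tecpr1 at 1709.

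The labels describe the old libraries as 3 pairs, and AThi and ATlo libraries with the same tag were taken as a pair. In 12 of 37 genes AThi was above ATlo in every pair (32.4%, against 21.1% of all genes with a p-value), and in 3 genes, Ulk2, Nrbf2 and Wdr45b, it was below in every pair (8.11%, against 19.5%). Without any overlap between the 2 groups, AThi was above ATlo in 8 genes (21.6%, against 10.4% of all genes) and below in 2 (5.41%, against 11%, or 2175 of 19836 genes). On the scale of log2(normalized count + 1), Zfyve1 differed by 0.90, 0.97 and 0.90 in the pairs O10, O11 and O12, and Atg16l2 by 0.88, 0.90 and 0.72. Trp53inp1 was at 0.55, 0.56 and 0.76 and Rb1cc1 at 0.31, 0.33 and 0.46. For Tecpr1 the differences were uneven, at 0.64, 0.30 and 2.18. Several genes changed sign between pairs, such as Wipi1 at 0.99, -0.42 and -1.07 and Atg101 at 0.74, -0.18 and -0.98. A fit with the pair as a block called 6 genes higher in AThi in place of 4, adding Atg13 and Zfyve1 (DESeq2 adjusted p = 0.041 and 0.026), and edgeR with the block called 0.

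**Figure D4:**
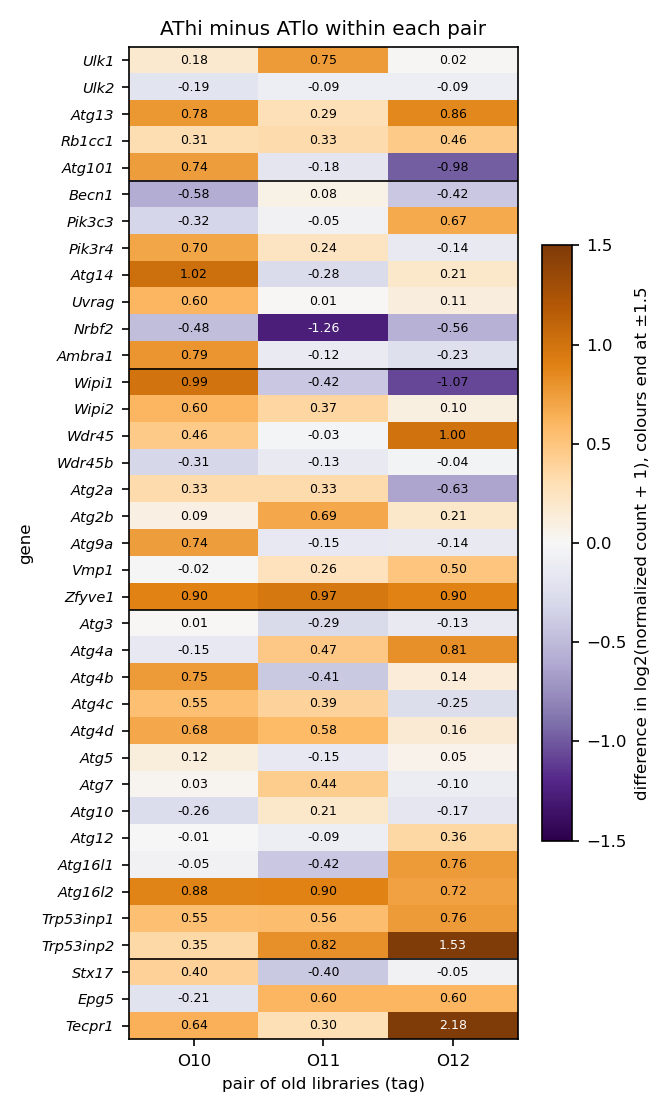
Difference between AThi and ATlo within each pair of old libraries, in log2(normalized count + 1), for the 37 genes by step (black lines separate steps). Brown is higher in AThi and purple lower; Zfyve1 (0.90, 0.97 and 0.90) and Atg16l2 (0.88, 0.90 and 0.72) are positive in every pair, and Tecpr1 ranges widely (0.64, 0.30 and 2.18).

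The balance between paralogs of a step was measured within each library as a share of reads, which needs no scaling between libraries. The share depends on gene length and is not a ratio of molecules. Ulk1 took 44.5%, 51.5% and 39.1% of the reads of Ulk1 and Ulk2 in AThi and 38.3%, 37.3% and 37.3% in ATlo, without overlap, and 47.3% and 38.0% in young. Means were 45.0% ± 6.23 and 37.6% ± 0.600 (SD, n = 3 each; two-sided exact permutation p = 0.10, the smallest that 3 against 3 allows, and 0.67 adjusted over 10 shares). Without AThi O11 the difference between these means fell to 4.16 percentage points. Atg16l2 took 57.6%, 67.0% and 43.5% of the reads of Atg16l1 and Atg16l2 in AThi, 41.5%, 44.7% and 44.2% in ATlo and 63.5% and 58.0% in young (exact permutation p = 0.30, adjusted 0.75, n = 3 each). The pairs O10 and O11 differed by 16.1 and 22.3 percentage points and the pair O12 by -0.706. Without AThi O11 the difference in Atg16l2 share fell from 12.6 to 7.06 points. The other 8 shares overlapped between the fractions, with exact permutation p from 0.20 to 0.80. They were those of Wipi1, Wdr45, Atg2a, Trp53inp1 and each ATG4 gene within its family. With 3 libraries a group this test could not pass 0.05 for any pair. It took the libraries of the fractions as unpaired. An exact permutation test of the differences within pairs of libraries gave p = 0.25 for the Ulk1 share and 0.50 for the Atg16l2 share. With 3 pairs its smallest possible p is 0.25.

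Summed over genes, normalized counts showed how the steps compare; the sums weight abundant genes most and are given without a test. All 37 genes together summed to 53946 and 54465 in young, at 57796, 54882 and 56946 in AThi and at 48617, 48068 and 48057 in ATlo. The ATlo libraries lay below all others and close to each other. For the ULK complex the order was young (18287 and 18539), AThi (15544 to 16643) and ATlo (12917 to 14187), with no overlap, and Rb1cc1 made up the largest part. For lipid transfer the sums were 12743 to 13505 in AThi, 11750 and 11889 in young and 10631 to 11413 in ATlo. Conjugation genes summed to 11449 to 13168 in AThi and 10119 to 11092 in ATlo, and fusion genes to 5464 to 6353 against 4317 to 5358, each without overlap between the fractions. The PI3-kinase genes overlapped, at 8473 to 10193 and 7161 to 9537.

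**Figure D5:**
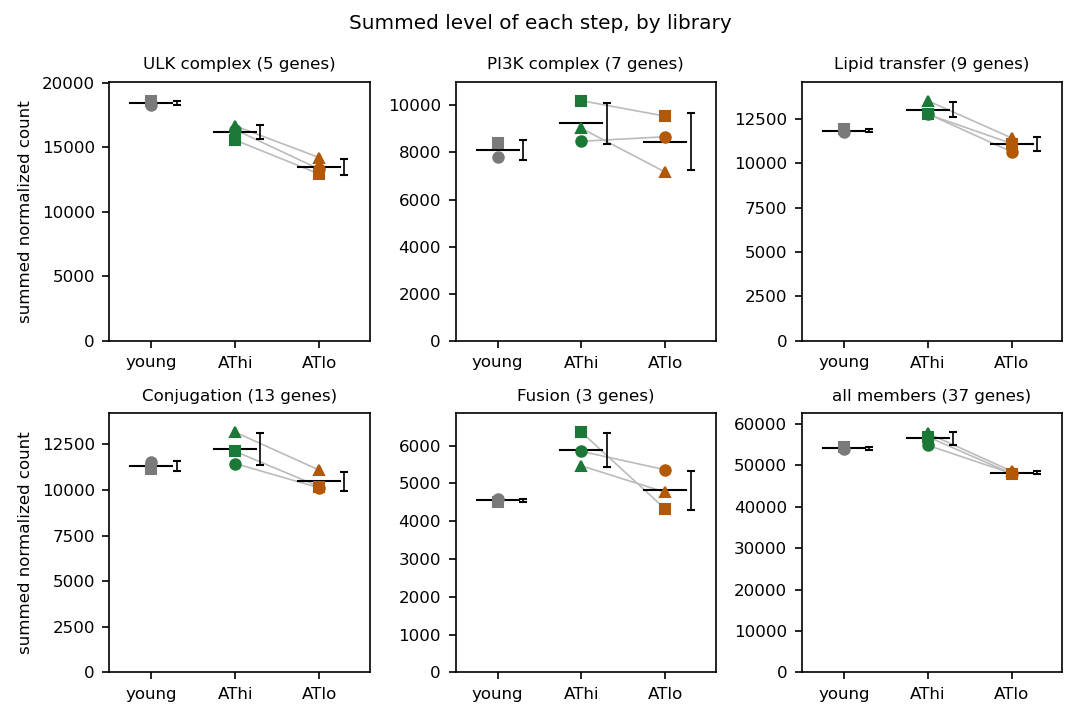
Summed normalized counts of each step and of all 37 genes, by library (symbols, means, SD bars and pair lines as in the plot of called genes; axes start at 0). ATlo lies below AThi for every step but the PI3-kinase complex, and for all 37 genes ATlo sums to 48057 to 48617 against 54882 to 57796 in AThi.

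Genes around this machinery were taken from lists that were chosen with earlier results of these data known. The LC3 and GABARAP substrates were not called, 0 of 5 in any comparison (0, 2 and 0 with an unadjusted p below 0.05, and 0 by edgeR in each). Their summed level was 15875 to 17419 in AThi, 13108 to 16167 in ATlo and 13073 to 14295 in young. Of 12 SNARE and tether partners of fusion, Plekhm1 and Stx7 were higher in AThi than in ATlo and 0 were lower, where 7.90% of all genes were called in that comparison, 3.47% higher. Plekhm1, an adaptor of lysosomes, had a log2 fold change of 0.65 (adjusted p = 0.014, SE 0.19) and Stx7, an endosomal SNARE, one of 0.69 (adjusted p = 0.023, SE 0.22) in the authors' deposited table. Against young, Stx7 was higher in AThi (0.76, adjusted p = 0.037), and in ATlo Plekhm1 was lower (-0.71, adjusted p = 0.028) and Vamp8, a lysosomal SNARE, higher (0.50, adjusted p = 0.0058) in the authors' deposited table. Of all genes, 5.04% were called in AThi against young (3.13% higher) and 4.34% in ATlo against young (2.37% higher, 1.98% lower). Of 19 genes of kinase and nutrient control, 1 was called between the fractions, where 7.90% of all genes were. That gene, Sesn3, a sestrin that restrains mTORC1, was higher in AThi at 0.62 (adjusted p = 0.0034, SE 0.16) in the authors' deposited table. The same gene was lower in ATlo than in young at -0.80 (adjusted p = 5.7e-04, SE 0.18) in the authors' deposited table. Of 10 transcription factors of autophagy genes, 2 were higher in AThi and 0 lower, where 3.47% of all genes were higher and 4.43% lower. These were Mitf, of the TFEB family, at 0.92 (adjusted p = 0.033, SE 0.30) and Zkscan3, described as a repressor of autophagy genes, at 0.88 (adjusted p = 0.012, SE 0.26) in the authors' deposited table. Tfeb itself had -0.37 (adjusted p = 0.84, SE 0.65) in the authors' deposited table. Of 5 brakes on the PI3-kinase complex, 0 were called between the fractions (1 with an unadjusted p below 0.05, and 0 by edgeR), and Bcl2, which binds Beclin 1, was higher than young in AThi and ATlo at 0.73 and 0.89 (adjusted p = 0.0017 and 5.4e-05, SE 0.18 for both) in the authors' deposited table. In edgeR none of these 5 lists held a called gene in any comparison; the smallest adjusted p among the genes named here was 0.066.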

How the data were processed

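Bulk RNA was sequenced from 8 HSC libraries (2 young, 3 AThi, 3 ATlo), each from about 10000 cells, as paired reads of 50 bases, per the labels' protocols. FastQC, MultiQC, STAR, featureCounts and DESeq2 with build GRCm38 are named in the submitters' processing notes; no source used here states their versions, the annotation or the strand setting. In the authors' deposited tables there are a log2 fold change with its SE, a Wald score, a p-value and adjusted p-value, and a normalized signal per library (read counts divided by 1 factor per library, here called normalized counts). Whole reads were recovered for 100% of values, within 0.01 of a read. Column names give the group and a tag (D11, D12, O10, O11, O12) but not the sample number of the labels, so libraries were matched to groups only. The design named edgeR for raw counts; the tables held the authors' contrasts, so their DESeq2 test was kept.

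Recovered reads were refitted with DESeq2 1.42.0 (identical to the deposited counts of calls) and edgeR 4.0.16 in R 4.3.3. Both were tested on a simulated set of counts, drawn with the spread that DESeq2 fitted to these reads. The set held planted changes in AThi, and no pairs or differences between tags. There DESeq2 made more false calls than its threshold allows and edgeR did not, at the cost of fewer true changes recovered. The real libraries may differ from that setting. Python 3.11.15 was used with scipy 1.17.1, pandas 2.3.3, matplotlib 3.10.9 and numpy 2.4.6. The 95% intervals are Wald intervals from the deposited SE. Exonic lengths, positions and overlaps come from GENCODE M21 (GRCm38), which need not be the authors' annotation. The labels describe 3 paired old replicates; deviations from the group means correlated between AThi and ATlo libraries of the same tag at 0.209, 0.164 and 0.373 over 13611 genes, so tags were used as pairs among old libraries. In comparisons with young the block was the tag number, which joins libraries of different mice (D11 with O11, D12 with O12). Fits of only the groups compared, other edgeR scalings and filters, and each library left out were alternatives. The series names 2 young and 3 old mice. Libraries of the same group differed by more than sampling noise in every pair (chi-square per degree of freedom 51.2 to 107). Depths cover counting error only, since reads carry no molecular identifiers.

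The members, gene lists and motifs were chosen with earlier results of these data known. Every called member and the gene of each step with the highest mean normalized count are given by library, other members by range or fold change. The table of upstream regulators was not used.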

Additional observations from a re-analysis of the deposited data

How the results depend on the processing

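The direction of all 9 calls on single members was kept in each of the 19 alternatives run for each, and none was called in edgeR, with or without the replicate block. Counts of members called fell from 4, 1 and 4 (AThi against ATlo, AThi against young, ATlo against young) to 0, 0 and 0 in edgeR with TMM, with RLE factors, with filterByExpr and with the replicate block, where 280, 240 and 130 genes in all were called with TMM in place of 1414, 961 and 811. On the simulated data, whose setting is given above and may differ from these libraries, DESeq2 made more false calls than its threshold allows. There edgeR did not, but it recovered fewer true changes. The cause of the gap between the tools in these data was not tested. With an adjusted p below 0.1, AThi against young had 2 members in place of 1. With only the groups compared in the fit, ATlo against young had 5 in place of 4, adding Ulk1. Leaving out 1 library at a time gave 1 to 4, 0 to 2 and 1 to 5 members; a lone young library was taken to vary like the other groups, and without D11 the 2 members called in AThi against young were Ulk2 and Wipi2. Without the 3 libraries tagged 12, an alternative chosen after seeing the data, the counts were 0, 1 and 1, and without both old libraries tagged O12 they were 1, 1 and 4. The replicate block in DESeq2 gave 6, 1 and 5 members; beyond the gains of Atg13 and Zfyve1 named above it changed no other call. Over all genes, higher calls in AThi against ATlo were 621 of 1414 in the deposited fit and 60 of 280 in edgeR.

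The difference in paralog share between the fractions changed sign on leaving out 1 library for Trp53inp1 (-1.70 points in full; -3.72 to 0.592, positive without AThi O12), Atg4a (1.57; -0.974 to 4.39, negative without AThi O12), Atg4b (-2.46; -6.26 to 0.658, positive without AThi O11) and Atg4c (-1.34; -4.16 to 1.46, positive without AThi O10 or ATlo O12), and for none of the other 6 shares. TMM scaling left the median of all genes at 0.03 in AThi against ATlo and made 28 of 37 member values positive in place of 27.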
